A study of Rattus norvegicus with 2 samples.

Results

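The tumour necrosis factor (TNF) superfamily pairs small trimeric ligands, most of them made as membrane proteins, with receptors that carry cysteine-rich repeats outside the cell. Some receptors hold a death domain, which recruits the adaptors TRADD or FADD and can lead to caspase activation, and others bind TRAF proteins directly and signal to NF-kB and MAP kinases. In the retina, TNF signalling is known from microglia, Müller glia and the death of ganglion cells after raised eye pressure. The genes described here were taken by symbol from a table of gene expression: *Tnf*, every *Tnfsf* and *Tnfrsf* gene with a number, and *Fas*, *Faslg*, *Cd40*, *Cd40lg*, *Lta*, *Ltb* and *Ltbr*. The rule found 37 of 32662 genes, 16 ligands and 21 receptors.

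The study sequenced 2 rRNA-depleted RNA-seq libraries from the retina of Long-Evans rats aged 2 months, 1 library per condition. The IR12 retina had ischemia followed by reperfusion (ischemia-reperfusion, IR) and was taken at 12 hours of reperfusion. The CTRL retina had a sham procedure instead. Both are whole tissue, and no difference below carries replicate error or a p-value. Expression was deposited as FPKM, a unit scaled to transcript length and to reads, although which reads entered the scaling is not stated.

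FPKM holds no read counts, but its lowest values move in steps of whole reads. Among 1055 olfactory receptor genes with a listed length near 1 kb, all 43 values above 0 in CTRL and all 118 in IR12 were whole multiples of 1 step within 5%, a loose limit for large multiples. A single step was the value of 22 genes in CTRL and 85 genes in IR12. For a gene with 1 kb of countable length, a single read in CTRL came to 0.0740 FPKM and a single read in IR12 to 0.0433 FPKM, a ratio of 1.71. The IR12 values thus rest on more reads per unit of FPKM, and 3 reads on such a gene correspond to 0.222 FPKM in CTRL and 0.130 FPKM in IR12. The steps describe the reads used in the scaling and do not measure sequencing depth. These figures cover counting error only.

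Both libraries carried the markers of retina, and they also stood apart in markers of other cell types. *Gnat1*, the transducin subunit of rods, had 4027 FPKM in CTRL and 4237 FPKM in IR12, and *Sag*, the rod arrestin, had 2482 and 4703 FPKM. The 9 photoreceptor markers summed to 9432 FPKM in CTRL and 10827 FPKM in IR12, but 7 of them were lower in IR12 by deposited FPKM and 3 on the TPM scale described below, and without *Sag* the deposited sum was 6950 and 6125 FPKM. The 8 lens genes summed to 1357 FPKM in CTRL and 160 FPKM in IR12, most of it from the crystallin *Cryaa* with 1118 and 124 FPKM. All 6 Müller glia markers were at least 2-fold lower in IR12 as deposited, beside 6.12% of all genes compared as described below. On the TPM scale 4 of the 6 were, beside 436 of 13599 genes. The 6 markers summed to 1500 FPKM in CTRL and 352 FPKM in IR12, and *Glul*, the most abundant, had 754 and 126 FPKM. In whole tissue, fewer cells of a type and less RNA per cell cannot be told apart.

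**Figure D1:**
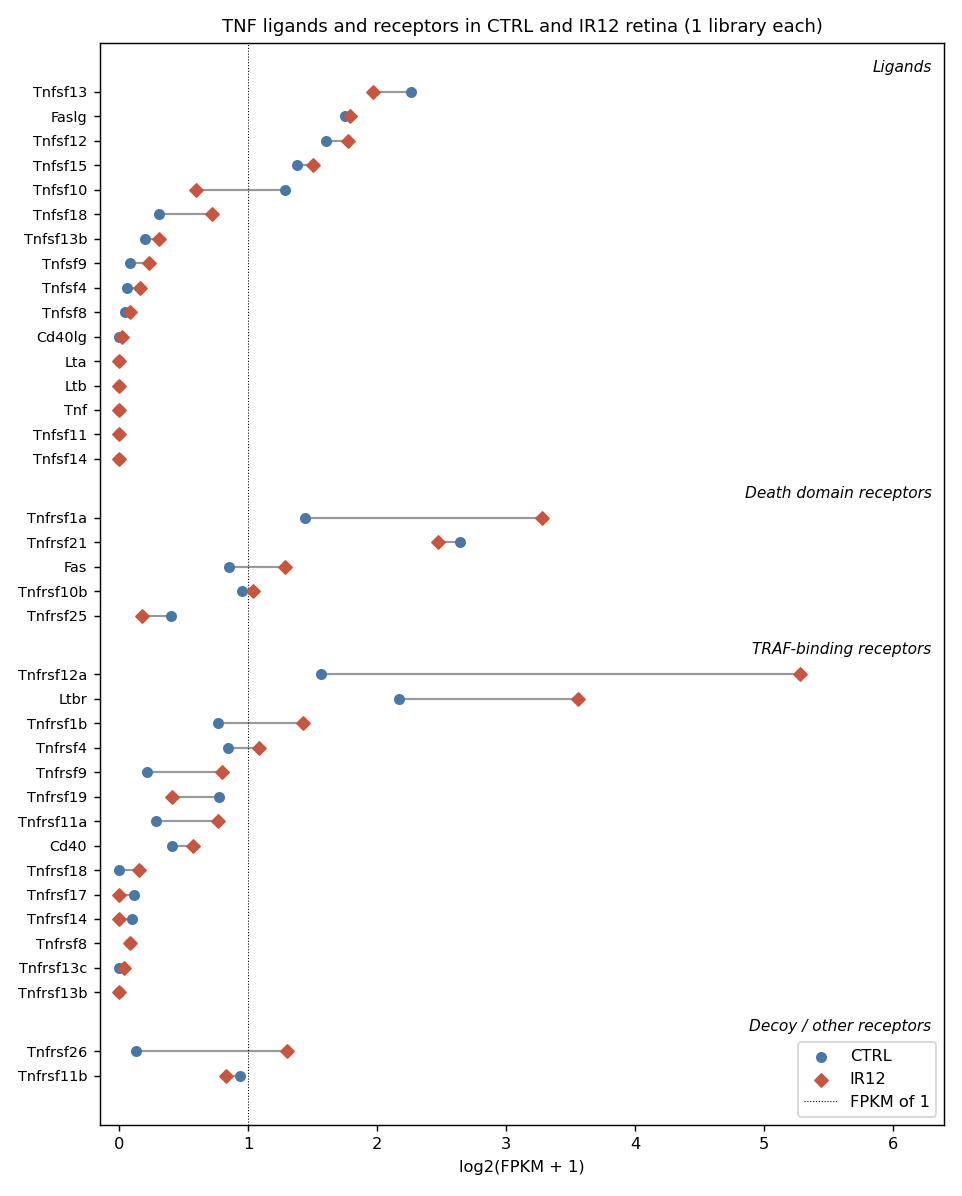
Level of the 37 ligand and receptor genes in CTRL (circles) and IR12 (diamonds), as log2(FPKM + 1) on the x axis, with 1 library per condition and a dotted line at an FPKM of 1. The longest line belongs to *Tnfrsf12a*, followed by *Tnfrsf1a* and *Ltbr*, while the most abundant ligands stay near their CTRL level.

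Ligands and receptors are first described by their sums, and no difference between the groups was tested. Summed over the 21 receptors, expression was 18.6 FPKM in CTRL and 71.9 FPKM in IR12, and summed over the 16 ligands it was 11.8 FPKM in CTRL and 11.4 FPKM in IR12. One receptor, *Tnfrsf12a*, made up 10.5% of the receptor sum in CTRL and 52.5% in IR12. Without it the receptor sum was 16.6 FPKM in CTRL and 34.1 FPKM in IR12. The difference in the sum rests mainly on *Tnfrsf12a*, *Tnfrsf1a* and *Ltbr*. Of the 21 receptors, 13 had a higher FPKM in IR12, 7 had a lower one and 1 was listed at 0 in both libraries. These sums and directions depend on the scaling between the libraries.

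Each gene was given the log2 of its FPKM + 1 in IR12 divided by its FPKM + 1 in CTRL. The added 1 makes changes of low genes look smaller than they are. A gene was called 2-fold higher or lower when this ratio reached 1 or -1. Genes with an FPKM of at least 1 in either library were compared, 13599 in all and 14 of the 37 members. Of these 14, 4 were 2-fold higher and 0 were 2-fold lower, and over all genes compared 6.56% were 2-fold higher and 6.12% were 2-fold lower. The median log2 ratio was 0.20 over the 14 members and 0.02 over all genes compared, an order that turned on the TPM scale described below, with 0.557 and 0.592. Since 5 of the 14 members reached the minimum in IR12 alone and 1 in CTRL alone, these members could pass only by being higher in that library. Of the 8 members with an FPKM of at least 1 in both libraries 3 were 2-fold higher, compared with 4.37% of the 12243 genes that met the same condition.

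The scaling between the libraries bears on these counts. When the FPKM of each library was brought to the same sum (TPM scale), the median of the genes with an FPKM of at least 1 in both libraries shifted up by 0.58 on the log2 scale, and over all genes 2817 were 2-fold higher and 436 were 2-fold lower, in place of 892 and 832. The 4 members called 2-fold higher had log2 ratios above 1 on every scale tried, whereas *Tnfrsf21* and *Tnfsf13* were lower in IR12 as deposited and higher on the TPM scale.

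*Tnfrsf12a* encodes Fn14, a very small receptor for the cytokine TWEAK that is known to be induced in injured tissue. It had 1.96 FPKM in CTRL and 37.8 FPKM in IR12, so that its level in IR12 was 19.2 times the level in CTRL and its log2 ratio was 3.71. Among the 13599 genes compared, 56 had a higher log2 ratio. Its level stood at the 13.4th percentile of these genes in CTRL and at the 77.0th percentile in IR12. The locus, chr10:12995904-12997930 on rn6, spans 2027 bases and overlaps no other listed locus. Since the transcript cannot exceed this span, the read steps give at most 51 reads for the CTRL value and at most 1680 for the IR12 value. With these numbers the relative counting error in CTRL is at least 14.0%. Beside *Tnfrsf12a*, *Hcfc1r1* had 42.8 FPKM in CTRL and 43.9 FPKM in IR12, and *Thoc6*, beyond it, had 4.11 and 8.89 FPKM. *Cldn6*, on the other side, was listed at 0 in CTRL and had 0.0847 FPKM in IR12, too low to compare, and *Cldn9*, beyond it, had 1.53 and 0.124 FPKM, lower in IR12.

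*Tnfrsf1a* encodes TNFR1, the death domain receptor through which soluble TNF acts on most cells. It had 1.71 FPKM in CTRL and 8.69 FPKM in IR12, a log2 ratio of 1.84. *Ltbr*, the lymphotoxin beta receptor, binds TRAF proteins and is a main activator of the non-canonical NF-kB pathway. It had 3.50 FPKM in CTRL and 10.8 FPKM in IR12, a log2 ratio of 1.39. Both genes were higher in IR12 and each was expressed in both libraries above an FPKM of 1.

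*Ltbr* (chr4:157822840-157829241, rn6) and *Tnfrsf1a* (chr4:157864969-157877633, rn6) are neighbours, 35.7 kb apart. The only gene listed between them, *Scnn1a*, a subunit of the epithelial sodium channel, had 0.102 FPKM in CTRL and 0.132 FPKM in IR12. *Plekhg6*, listed just beyond *Tnfrsf1a*, had 0.0303 FPKM in CTRL and 0.230 FPKM in IR12. *Cd27*, a related receptor gene in the same region, was listed at 0 in both libraries. Thus the 2 receptor genes were higher in IR12 while *Scnn1a*, the gene between them, was well under an FPKM of 1 in both libraries.

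For *Tnfrsf12a*, *Tnfrsf1a* and *Ltbr*, the 3 members called higher that reached an FPKM of 1 in both libraries, the sequence before each gene is shown, from the RefSeq promoter table on GRCr8 (not the build of the FPKM loci), 5′ to 3′ on the strand of the gene and ending at the base before the RefSeq gene. Capitals mark the GC box GGGCGG on either strand, where adjacent copies form 1 stretch.
Tnfrsf12a, chr10:13213667-13213898, minus strand: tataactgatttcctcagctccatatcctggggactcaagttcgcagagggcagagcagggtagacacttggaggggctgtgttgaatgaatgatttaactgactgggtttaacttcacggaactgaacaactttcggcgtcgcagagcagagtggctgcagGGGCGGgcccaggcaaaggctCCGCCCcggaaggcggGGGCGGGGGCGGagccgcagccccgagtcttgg
Ltbr, chr4:159801572-159801766, minus strand: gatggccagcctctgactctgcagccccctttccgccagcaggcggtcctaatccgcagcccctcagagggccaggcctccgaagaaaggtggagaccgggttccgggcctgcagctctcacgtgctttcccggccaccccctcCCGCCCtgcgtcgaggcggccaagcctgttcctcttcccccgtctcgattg
Tnfrsf1a, chr4:159836869-159837118, plus strand: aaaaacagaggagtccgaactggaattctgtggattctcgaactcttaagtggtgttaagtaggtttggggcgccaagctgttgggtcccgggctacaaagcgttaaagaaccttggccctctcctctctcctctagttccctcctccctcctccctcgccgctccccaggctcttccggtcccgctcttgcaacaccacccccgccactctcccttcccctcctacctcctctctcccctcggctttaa

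Promoter windows of 300 bases were given for 27 of the 37 members. A match to the NF-kB consensus on either strand was found in 4 of these windows, those of *Lta*, *Ltb*, *Tnfsf14* and *Tnfrsf8*, and in 4.18% of all 33469 windows. None of these 4 genes exceeded 0.0615 FPKM in either library. The AP-1 motif TGANTCA was found in the windows of *Fas*, *Tnfrsf1b* and *Tnfrsf8*, and in 7.33% of all windows. The GC box, searched for after the values were seen, was found in 16 of the 27 member windows and in 33.1% of all windows. The windows of *Tnfrsf12a* and *Ltbr* held the GC box, those of *Tnfrsf1a* and *Tnfrsf26* did not, and none of the 4 held the NF-kB consensus or the AP-1 motif. A match is a description of letters and not of a bound site. The NF-kB match of *Ltb* and the AP-1 matches of *Fas* and *Tnfrsf1b* are shown in capitals with 10 bases on either side, as examples of matches that lie before the RefSeq gene.
Ltb, chr20:3634060-3634089, minus strand: tagggtgttcGGAAAGTCCCaggcagggga
Fas, chr1:241211940-241211966, plus strand: agtgaggtgaTGAATCAgtggatttcc
Tnfrsf1b, chr5:162387581-162387607, minus strand: ggagagagacTGAGTCActccaggaag

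The other death domain receptors taken by the symbol rule were closer to their control level. *Tnfrsf21*, also known as DR6 and linked to axon pruning, was the most abundant receptor in CTRL with 5.24 FPKM and had 4.56 FPKM in IR12, a log2 ratio of -0.17. *Fas*, the receptor of Fas ligand, had 0.801 FPKM in CTRL and 1.44 FPKM in IR12, a log2 ratio of 0.44. *Tnfrsf10b*, the TRAIL receptor, had 0.931 FPKM in CTRL and 1.05 FPKM in IR12, a log2 ratio of 0.09. None of these 3 genes reached the 2-fold limit. *Tnfrsf25*, known as DR3 and the receptor of the *Tnfsf15* product, was under an FPKM of 1 in both libraries, with 0.319 in CTRL and 0.133 in IR12.

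Among the TRAF-binding receptors, *Tnfrsf1b* encodes TNFR2, which responds best to membrane-bound TNF. It had 0.699 FPKM in CTRL and 1.68 FPKM in IR12, a log2 ratio of 0.66 that became 1.16 with a pseudocount of 0.1. *Tnfrsf4*, the T cell costimulator OX40, had 0.797 FPKM in CTRL and 1.12 FPKM in IR12. Neither was called 2-fold different. Apart from *Tnfrsf12a* and *Ltbr*, the other TRAF-binding receptors stayed under an FPKM of 1. The costimulator *Tnfrsf9* (4-1BB) had 0.165 FPKM in CTRL and 0.735 FPKM in IR12, and *Tnfrsf11a* (RANK, the receptor of the osteoclast factor RANKL) had 0.220 FPKM in CTRL and 0.700 FPKM in IR12. *Tnfrsf19*, known as TROY and expressed in progenitor cells and glia, had 0.708 FPKM in CTRL and 0.330 FPKM in IR12. *Cd40*, the costimulatory receptor of B cells and macrophages, had 0.331 and 0.485 FPKM. These low levels went in both directions.

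Several receptors known from lymphocytes had low levels. *Tnfrsf13b*, *Tnfrsf13c* and *Tnfrsf17* (TACI, BAFF receptor and BCMA of B and plasma cells), *Tnfrsf14*, *Tnfrsf18* and *Tnfrsf8* lay between 0 and 0.112 FPKM in both libraries. The 6 B cell markers summed to 0.139 FPKM in CTRL and 0.294 FPKM in IR12, with *Cd79a* and *Pax5* listed at 0 in both, and *Cd22*, the most abundant, at 0.0743 and 0.168 FPKM. *Ms4a1* and *Blk* were listed at 0 in CTRL and *Cd79b* in IR12. The 12 T and NK cell markers summed to 1.48 FPKM in CTRL and 2.08 FPKM in IR12. Most of this sum came from *Cd4*, with 1.09 FPKM in CTRL and 1.08 FPKM in IR12, and *Gzmb* and *Klrb1* were listed at 0 in both.

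Of the remaining receptors, *Tnfrsf11b* (osteoprotegerin, a decoy that binds RANKL and TRAIL) had 0.914 FPKM in CTRL and 0.775 FPKM in IR12. *Tnfrsf26* had 0.0931 FPKM in CTRL and 1.46 FPKM in IR12, a log2 ratio of 1.17, and was the fourth member called 2-fold higher. It reached an FPKM of 1 in IR12 alone. A related gene, *Tnfrsf22*, lies next to it in the RefSeq annotation of GRCr8 and was not analysed here. Reads that fit both genes may make this value uncertain, which was not tested.

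Several markers of myeloid cells were higher in IR12, as the 4 receptors called 2-fold higher were. Of the 10 monocyte and macrophage markers, 5 of the 6 compared were 2-fold higher in IR12, beside 6.56% of all genes compared. However, *Lyz2* alone reached an FPKM of 1 in both libraries, and the other 5 could be compared only through IR12. The list summed to 12.3 FPKM in CTRL and 93.6 FPKM in IR12. *Lyz2*, the most abundant, had 9.73 and 76.9 FPKM, and *Ccr2* and *Ms4a7* were listed at 0 in CTRL. The resident macrophage genes *Mrc1*, with 0.258 and 0.166 FPKM, and *Cd163*, with 0.131 and 0.0110 FPKM, had lower values in IR12. The 10 neutrophil markers summed to 0.377 FPKM in CTRL and 39.9 FPKM in IR12, and the 4 that could be compared all reached an FPKM of 1 in IR12 alone. *Ngp* had 0.145 and 0.127 FPKM. *S100a9*, the most abundant, had 0.199 and 23.0 FPKM, *Cxcr2*, *S100a8*, *Fcnb* and *Mmp8* were listed at 0 in CTRL, and *Elane*, *Ltf* and *Mpo* were listed at 0 in both libraries. The 9 microglia markers, whose most abundant gene *Aif1* had 5.42 FPKM in CTRL and 7.36 FPKM in IR12, summed to 17.3 and 13.6 FPKM as deposited. Without *Aif1* the deposited sum was 11.9 and 6.26 FPKM, and *Gpr34*, with 4.56 FPKM in CTRL and 0.762 FPKM in IR12, was 2-fold lower. These sums depend on the scaling. On the TPM scale *Aif1* and *Csf1r* had log2 ratios of 0.92 and 0.52, while *Gpr34*, *P2ry12* and *Cx3cr1* had -1.20, -0.34 and -0.05. *Siglech* was the only microglia marker listed at 0, in CTRL. The part of these cells in the receptor levels was not tested.

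**Figure D2:**
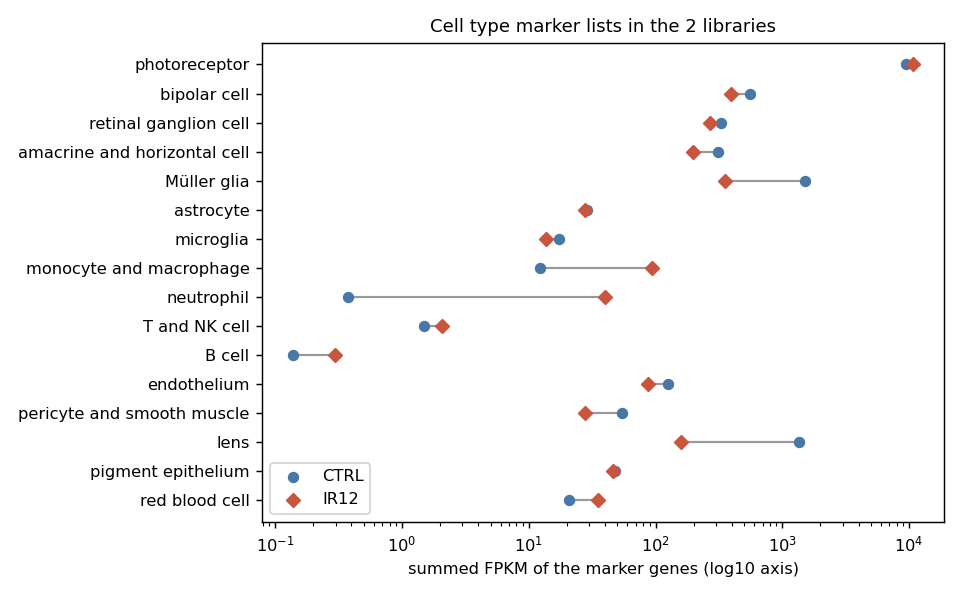
Summed FPKM of 16 cell type marker lists in CTRL (circles) and IR12 (diamonds) on a log10 axis, 1 library per condition. The neutrophil sum goes from 0.377 to 39.9 FPKM and the monocyte and macrophage sum from 12.3 to 93.6 FPKM, while the B cell sum stays under 1 FPKM and the lens and Müller glia sums are lower in IR12.

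Tnf itself, the ligand that names the family, was listed at 0 in both libraries, as were *Lta* and *Ltb*. The 3 genes lie together in the MHC region and share 1 listed locus, chr20:4638663-5008262 on rn6, with 27 other genes. Values above 0 were listed for 21 of the 30 genes of this locus. Of these, *Nfkbil1* had 3.61 FPKM in CTRL and 6.05 FPKM in IR12, and *Atp6v1g2*, a subunit of the vacuolar proton pump, had 66.8 and 67.4 FPKM. The remaining 9 genes, *Tnf*, *Lta* and *Ltb* among them, were listed at 0 in both libraries. A listed 0 is no proof of a silent gene, because all 37 mitochondrial genes were also listed at 0 in both libraries. *Tnfsf11* (RANKL) and *Tnfsf14* (LIGHT) were listed at 0 in both libraries as well, so that the lymphotoxins and LIGHT, the ligands of the receptor encoded by *Ltbr*, all had a listed level of 0.

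None of the 5 ligands with an FPKM of at least 1 was called 2-fold different with a pseudocount of 1. *Tnfsf13* (APRIL, a survival factor of plasma cells) was the most abundant, with 3.80 FPKM in CTRL and 2.91 FPKM in IR12, a log2 ratio of -0.30. *Tnfsf12* encodes TWEAK, the ligand of Fn14, and had 2.04 FPKM in CTRL and 2.42 FPKM in IR12, a log2 ratio of 0.17. The TWEAK and Fn14 genes were thus at about the same level in CTRL, and in IR12 only the receptor differed 2-fold.

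*Faslg*, whose product kills Fas-bearing cells and is known for its part in the immune privilege of the eye, had 2.38 FPKM in CTRL and 2.46 FPKM in IR12, a log2 ratio of 0.04. This ratio was -0.03 when genes other than small RNAs were brought to the same sum and 0.48 on the TPM scale. *Tnfsf15* (TL1A, a factor made by endothelial cells) had 1.61 FPKM in CTRL and 1.84 FPKM in IR12, a log2 ratio of 0.12 that was 0.51 on the TPM scale. Neither gene passed the 2-fold limit on any scale.

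*Tnfsf10*, which encodes the death ligand TRAIL, had the most negative log2 ratio of the members. It had 1.44 FPKM in CTRL and 0.511 FPKM in IR12, a log2 ratio of -0.69. With a pseudocount of 0.1 the log2 ratio was -1.34, past the 2-fold limit, and on the TPM scale it was -0.37. The gene stayed lower in IR12 on every scale tried, although the size depends on the scale.

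The remaining ligands were under an FPKM of 1 in both libraries. *Tnfsf18* (GITR ligand) had 0.242 FPKM in CTRL and 0.647 FPKM in IR12, and *Tnfsf13b* (BAFF, the B cell survival factor) had 0.148 and 0.239 FPKM. *Tnfsf4* (OX40 ligand), *Tnfsf8* (CD30 ligand), *Tnfsf9* (4-1BB ligand) and *Cd40lg* lay between 0 and 0.172 FPKM. These values may rest on a few reads. The FPKM in IR12 over that in CTRL was multiplied by the ratio of 1.71 between the steps of the libraries. Of the 12 members above 0 but under an FPKM of 1 in both libraries, 5 then matched a ratio of whole numbers. These whole numbers were up to 5, and the match was within 0.5%. The smallest such numbers were 1 read in CTRL and 5 reads in IR12 for *Tnfsf9* and *Tnfsf4*, 1 and 3 for *Tnfsf8*, 2 and 5 for *Cd40*, and 3 and 5 for *Tnfrsf8*. The true numbers of reads may be multiples of these.

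**Figure D3:**
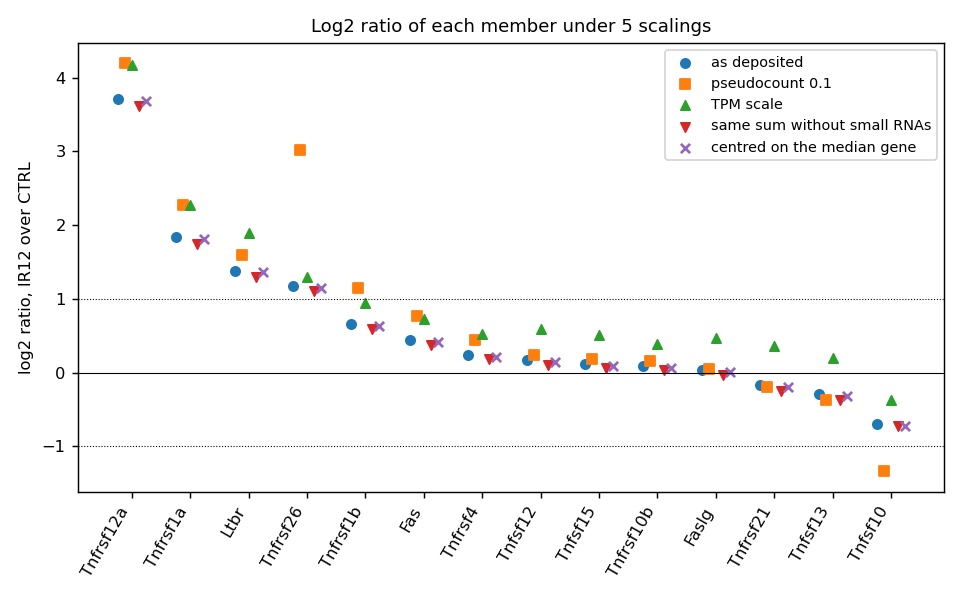
Log2 ratio (IR12 over CTRL) of the 14 members with an FPKM of at least 1 in either library, under the deposited scale with a pseudocount of 1 and 4 alternatives, with dotted lines at the 2-fold limits. *Tnfrsf12a*, *Tnfrsf1a*, *Ltbr* and *Tnfrsf26* are above 1 on each scale, and *Tnfsf10* passes -1 with a pseudocount of 0.1 only.

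The family also has members whose symbols lie outside the rule. *Ngfr*, the death domain receptor p75NTR that binds neurotrophins, had 2.23 FPKM in CTRL and 12.96 FPKM in IR12, a log2 ratio of 2.11. *Eda*, the ectodysplasin ligand, had 1.56 FPKM in CTRL and 1.01 FPKM in IR12. *Relt*, *Edar* and *Eda2r* were under an FPKM of 1 in both libraries, and *Cd27* and *Cd70* were listed at 0 in both. Of these 7 genes only 2, *Ngfr* and *Eda*, could be compared. *Ngfr* alone was 2-fold higher, beside 6.56% of all genes compared.

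The counts as deposited that follow can be set beside the 6.56% of all genes compared that were 2-fold higher, and those on the TPM scale beside 2817 of 13599 genes. Over all genes, 1168 of 13599 were 2-fold higher with a pseudocount of 0.1 and 655 of 10281 with a minimum FPKM of 5. With the same sum without small RNAs the number was 789 of 13599. Of all genes with an FPKM of at least 1 in both libraries, 4.37% were 2-fold higher as deposited. Downstream of the receptors, 2 of the 10 adaptors and ubiquitin ligases compared were 2-fold higher in IR12 and 0 were 2-fold lower, with a median log2 ratio of 0.24. The number higher was 3 on the TPM scale and 1 with a minimum FPKM of 5, and 1 of the 9 genes that reached an FPKM of 1 in both libraries was called. *Birc3*, which encodes the ubiquitin ligase cIAP2 and is a well-known NF-kB target, had 0.190 FPKM in CTRL and 4.58 FPKM in IR12. *Ripk1*, the kinase that joins TNFR1 signalling to survival or death, had 7.94 FPKM in CTRL and 21.8 FPKM in IR12. *Birc2* (cIAP1), the most abundant of the list, had 34.6 and 38.3 FPKM, so the 2 related ligases differed in pattern. *Traf2*, the TRAF protein of TNFR1 and TNFR2, had 6.26 FPKM in CTRL and 10.7 FPKM in IR12, and *Traf6* had 9.48 and 9.42 FPKM. *Tradd*, the first adaptor of TNFR1, was under an FPKM of 1 in both libraries with 0.287 and 0.370.

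Among 8 genes of the death machinery, 2 were 2-fold higher and 0 were 2-fold lower, with a median log2 ratio of 0.65. The number higher was 5 with a pseudocount of 0.1, 4 on the TPM scale and 0 with a minimum FPKM of 5. In this list 4 genes reached an FPKM of 1 in IR12 alone. Of the 4 that reached it in both libraries 0 were called, with a median log2 ratio of 0.39. *Ripk3*, the kinase of necroptosis, had 0.0721 FPKM in CTRL and 3.59 FPKM in IR12, and *Bid*, which links caspase-8 to mitochondria, had 0.544 and 2.27 FPKM. Both were under an FPKM of 1 in CTRL. *Mlkl*, the effector of necroptosis, had 0.460 FPKM in CTRL and 1.04 FPKM in IR12, and *Casp8* had 0.786 and 1.78 FPKM. *Cflar*, the inhibitor of caspase-8, had 3.03 and 6.15 FPKM. These 3 genes did not pass the limit as deposited with a pseudocount of 1. The caspase inhibitor *Xiap*, the most abundant gene of the list, was lower in IR12, with 166.5 FPKM in CTRL and 93.2 FPKM in IR12, a log2 ratio of -0.83.

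Of 9 genes compared in the IKK and MAP3 kinase list, 1 was 2-fold higher and 0 were 2-fold lower, with a median log2 ratio of 0.36. The number higher was 3 on the TPM scale and 0 with a minimum FPKM of 5. The gene called as deposited was *Map3k8* (TPL2, which carries the TNF signal to ERK), with 0.314 FPKM in CTRL and 1.95 FPKM in IR12. It reached the minimum in IR12 alone, and of the 8 genes that reached it in both libraries 0 were called. *Tab2*, the most abundant, had 48.5 and 63.4 FPKM. Of 17 NF-kB subunits and feedback regulators, 5 were 2-fold higher and 0 were 2-fold lower, with a median log2 ratio of 0.79. *Tnip2*, a partner of the deubiquitinase A20 and of *Nfkb1* products, had the highest level in IR12, with 13.5 FPKM in CTRL and 100.2 FPKM in IR12. The subunits of the non-canonical pathway, *Relb* with 0.443 and 3.01 FPKM and *Nfkb2* with 0.566 and 3.29 FPKM, were 2-fold higher. So were *Nfkbie*, with 0.556 and 3.29 FPKM, and *Nfkbiz*, with 2.17 and 5.60 FPKM. *Tnfaip3*, which encodes A20, had 40.9 FPKM in CTRL and 31.9 FPKM in IR12 and, like *Cyld*, was lower as deposited and higher on the TPM scale. The number of the 17 genes 2-fold higher was 13 on the TPM scale, on which all genes shift up, 8 with a pseudocount of 0.1, 4 with the same sum without small RNAs, and 2 with a minimum FPKM of 5. Of the 14 that reached an FPKM of 1 in both libraries, 2 were called.

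Of 20 genes known to respond to TNF in other cells, many of which also respond to other cytokines, 15 were 2-fold higher and 0 were 2-fold lower, with a median log2 ratio of 1.66. In this list 12 genes reached an FPKM of 1 in IR12 alone. Of the 8 that reached it in both libraries 4 were 2-fold higher, and the median log2 ratio of the 8 was 1.11. The chemokine gene *Ccl2* had 0.205 FPKM in CTRL and 121 FPKM in IR12, and *Cxcl1* had 1.35 and 19.1 FPKM. *Icam1*, the adhesion molecule of leukocytes, had 0.718 FPKM in CTRL and 7.32 FPKM in IR12. *Ccl20*, *Cxcl2* and *Il6* were listed at 0 in CTRL and had 12.7, 3.32 and 1.76 FPKM in IR12. *Vcam1*, with 10.8 FPKM in CTRL and 8.48 FPKM in IR12, and *Tnfaip8*, with 5.21 and 3.39 FPKM, were the 2 genes of the list that were lower in IR12 as deposited, and both were higher on the TPM scale.

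The enzymes that release TNF family proteins from the membrane, and their inhibitors, went in both directions. *Adam17*, the TNF-converting enzyme, had 12.6 FPKM in CTRL and 22.7 FPKM in IR12, a log2 ratio of 0.80. *Timp3*, which encodes its main tissue inhibitor, had 24.2 FPKM in CTRL and 10.7 FPKM in IR12, a log2 ratio of -1.10. *Timp1*, an inhibitor of matrix metalloproteinases, had 4.71 and 168.7 FPKM. Of the 6 genes compared in this list, 1 was 2-fold higher and 1 was 2-fold lower, and the median log2 ratio was 0.48. On the TPM scale *Timp3* had a log2 ratio of -0.49 and was no longer called, and the number higher was 2 there and with a pseudocount of 0.1.

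**Figure D4:**
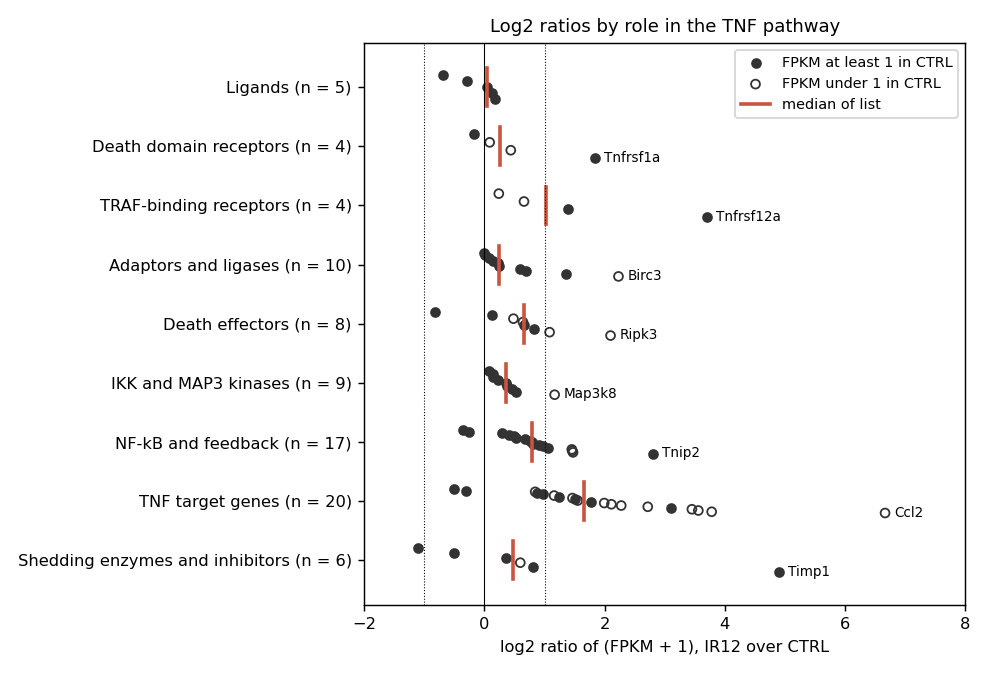
Log2 ratio of (FPKM + 1), IR12 over CTRL, for genes with an FPKM of at least 1 in either library, by role in the TNF pathway. Bars give the list medians and dotted lines the 2-fold limits. *Tnfrsf26* and the family members outside the symbol rule, *Ngfr* and *Eda*, are not shown. Ligands centre on 0.04 and the 20 TNF target genes on 1.66, or on 1.11 for the 8 with an FPKM of at least 1 in both libraries. Open circles mark genes with an FPKM under 1 in CTRL.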

How the data were processed

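The authors deposited 1 FPKM value per gene and library for 32662 genes with rn6 loci. The submitters' processing notes list STAR 2.5.2b, Cuffdiff 2.2.0 and rn6 without roles. Both columns were matched to their samples by title. Locus starts were raised by 1 for printing.

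Log2 ratios used FPKM as deposited with a pseudocount of 1, a minimum FPKM of 1 in CTRL or IR12, and a 2-fold limit. With 1 library per condition no test was made. Small non-coding RNAs, recognised by symbol, held 68.0% of the FPKM sum in CTRL and 46.4% in IR12, so column sums (1402320 and 895200) do not measure depth. The reads behind FPKM were judged from olfactory receptor genes, a step chosen after the values were seen. Countable length was taken as locus length less a read length assumed to be 100 bases, plus 1.

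Of the genes planned for the lists, 7 symbols were not found and 4 other genes were not used here. The members and lists were chosen with earlier results of these data known. All members were named, and of the pathway lists (adaptors, death machinery, kinases, NF-kB, TNF targets, shedding enzymes) genes past 2-fold or most abundant, but only 6 of the 15 TNF targets past 2-fold, picked after their values were seen. Others, such as *Tradd*, *Traf2*, *Traf6*, *Casp8*, *Mlkl*, *Cflar*, *Adam17*, *Vcam1*, *Tnfaip8*, *Tnfaip3*, *Cyld* and the genes beside a member's locus, were named after their values were seen. Motifs were searched on both strands in RefSeq promoter windows (GRCr8), and the windows were matched by symbol. Code was tested on simulated data. Python 3.11.15, numpy 2.4.6, pandas 2.3.3 and matplotlib 3.10.9 were used.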

Additional observations from a re-analysis of the deposited data

How the results depend on the processing

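No paired analysis was possible because each condition has 1 library, and for the same reason no replicate could be left out. Alternatives were a pseudocount of 0.1, FPKM brought to the same sum over all genes (TPM scale) or over genes other than small RNAs, centring on the median gene, no minimum, and a minimum FPKM of 5. Of 128 alternative values of 26 results, 108 kept their direction and their side of the limit, or moved by at most 1.5 times, and 0 of the 4 members called 2-fold higher changed sign. Of the 10 members compared and not called, *Tnfrsf21*, *Tnfsf13* and *Faslg* did. The number of members 2-fold higher was between 3, with a minimum FPKM of 5, and 5, with a pseudocount of 0.1. Over all genes, 655 of 10281 and 1168 of 13599 were 2-fold higher at these settings. With a pseudocount of 0.1, 1 member, *Tnfsf10*, was 2-fold lower, beside 1176 of 13599 genes. With a minimum FPKM of 5 the median log2 ratio of members was 1.61, over the 4 members left, and on the TPM scale it was 0.557, under the 0.592 of all genes compared. On the TPM scale 2817 genes were 2-fold higher and 436 were 2-fold lower, because small RNAs weigh more in the CTRL sum. Of 12 members under an FPKM of 1 and above 0 in both libraries, 5 had ratios of small whole read numbers and may rest on a few reads.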

Other observations

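The other marker lists gave the following values. The 6 bipolar cell markers summed to 555.7 FPKM in CTRL and 397.2 FPKM in IR12, the 8 retinal ganglion cell markers to 331.2 and 268.7 FPKM, and the 7 amacrine and horizontal cell markers to 313.4 and 197.8 FPKM. The 7 endothelial markers found summed to 126.2 FPKM in CTRL and 88.0 FPKM in IR12, with *Kdr*, which is also expressed by retinal neurons and glia, at 107.6 and 66.8 FPKM, and the others summed to 18.7 and 21.2 FPKM. The 7 pericyte and smooth muscle markers summed to 54.2 and 27.7 FPKM, the 8 pigment epithelium markers to 47.6 and 46.4 FPKM, the 3 red blood cell markers found to 20.8 and 35.4 FPKM, and the 4 astrocyte markers to 28.8 and 27.8 FPKM. Within the astrocyte list *Gfap*, which Müller glia express after injury, had 2.95 FPKM in CTRL and 21.9 FPKM in IR12, and *S100b* had 25.8 and 5.81 FPKM.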
